A study of Mus musculus with 6 samples.

Results

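The 10 genes described here make and shape new fatty acids: Acly, Acaca, Acacb, Fasn, Elovl6, Scd1, Scd2 and Me1 encode enzymes, and Srebf1 and Mlxipl encode transcription factors. They were taken by symbol from the deposited table, which lists 24421 gene symbols, and all 10 were found and passed the filter on low values. The table covers 3 mammary glands and 3 mammary tumours of mice carrying LINK-A, a long noncoding RNA, as a transgene. The glands came from 5-month-old females labelled FVB/NJ; Tg(LINK-A). The tumours came from tumour-bearing females of the same age labelled FVB/NJ; MMTV-Tg(LINK-A). Both groups therefore carry the transgene on the FVB/NJ inbred background. MMTV is a viral promoter active mainly in mammary epithelium, and the label of the gland donors does not name it, so tissue and genotype cannot be told apart. The labels do not say whether the 3 samples of a group came from separate animals, so each p-value reflects the spread among these tissue samples, which may be technical.

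De novo fatty acid synthesis turns cytosolic citrate into saturated fatty acids. ATP citrate lyase releases acetyl-CoA, acetyl-CoA carboxylase makes malonyl-CoA, and fatty acid synthase joins these units with NADPH as the reductant, after which elongases lengthen the chain and stearoyl-CoA desaturases put in a double bond. Adipocytes use the pathway to store fat, mammary alveolar cells use it for milk fat, and many tumours use it for membranes. SREBP-1 and ChREBP, encoded by Srebf1 and Mlxipl, switch on its genes in response to insulin and to sugar.

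Values are FPKM, fragment counts scaled by transcript length and by the size of the library, so levels are per length and can be set beside each other between genes. Each library summed to between 486080 and 582996 FPKM over all symbols. Read totals were not used here, so depth is unknown. Of the symbols, 13364 had a mean of at least 1 FPKM and were tested with limma on log2(value + 1), which understates the change of low genes. With a Benjamini-Hochberg adjusted p under 0.05, 6023 genes (45.1%) were called, 2933 (21.9%) higher and 3090 (23.1%) lower in the tumours. The values of the groups did not overlap for 7781 genes (58.2%). The mammary tissue label was checked with markers. All 12 luminal epithelium markers were called higher in the tumours, with sums of 1327 to 1411 FPKM in the glands and 3399 to 3849 FPKM in the tumours. Of 12 white adipocyte markers, 11 were called lower, with sums of 8601 to 10797 FPKM in the glands and 124 to 404 FPKM in the tumours. The gland libraries were thus rich in adipocyte transcripts. In bulk tissue, fewer cells of a type and less RNA per cell cannot be told apart. The part of these markers in the results below was not tested.

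Most of the synthesis genes had far lower levels in the tumours. Of the 10, 8 were called lower, against the 23.1% of all tested genes called lower. Scd2 was called higher, a direction taken by 21.9% of tested genes. Srebf1 was not called. In all, 9 of 10 were called against 45.1%, and for 9 of 10 the groups did not overlap, against 58.2%. Their median log2 fold change was -2.91, against 0.01 over all tested genes. Together they summed to 7007, 6423 and 6897 FPKM in the 3 glands and to 719, 835 and 804 FPKM in the 3 tumours. These sums made up 1.41%, 1.26% and 1.36% of all FPKM in the glands and 0.123%, 0.160% and 0.165% in the tumours. The sum was lower in each tumour than in any gland.

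**Figure D1:**
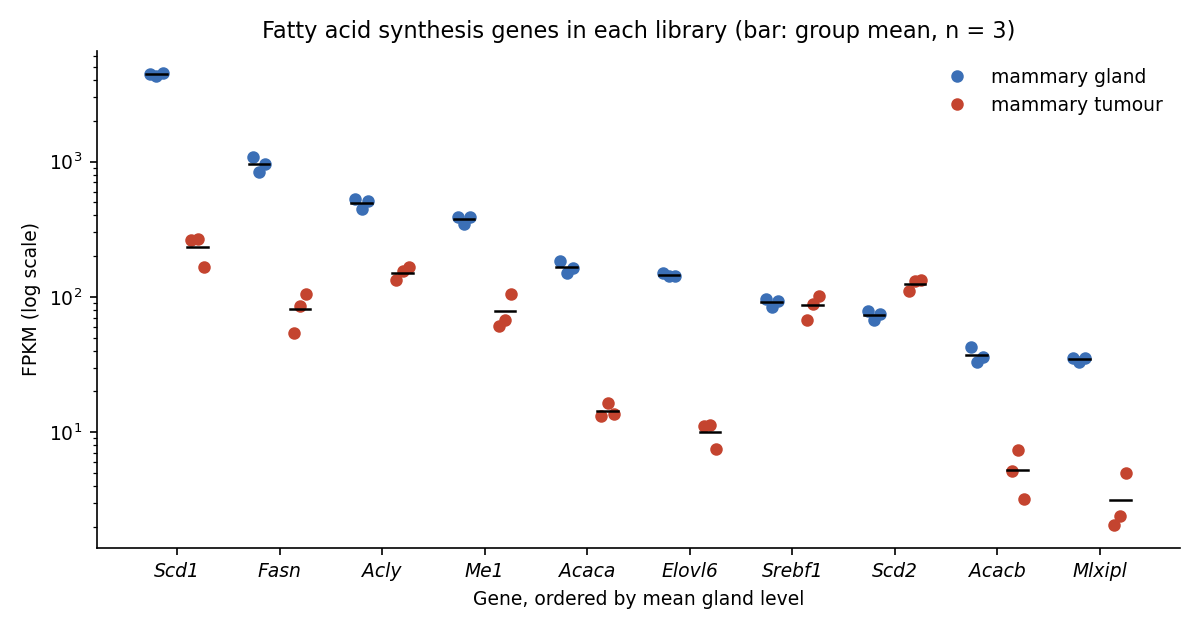
FPKM of the 10 fatty acid synthesis genes in each library, on a log axis, with points for single libraries and lines for the group means. Tumour points lie below all gland points for 8 genes, above them for Scd2 and among them for Srebf1.

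Acly, on chromosome 11 (chr11:100476353-100528000, minus strand, GRCm38), encodes ATP citrate lyase, which splits citrate into acetyl-CoA and oxaloacetate. Its level was 525, 443 and 511 FPKM in the glands and 133, 155 and 165 FPKM in the tumours. Each tumour was well under the lowest gland. The mean was 493 ± 43.9 FPKM in the glands and 151 ± 16.8 FPKM in the tumours (SD, n = 3 each), 3.26-fold lower, and the log2 fold change was -1.70 (SE 0.13, limma adjusted p = 1.36e-04). Acly kept the highest share of its gland level among the 8 genes that fell, 30.7%.

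Acetyl-CoA carboxylase comes in a cytosolic form, encoded by Acaca (chr11:84129672-84401651, plus strand), whose malonyl-CoA feeds synthesis. A second form, encoded by Acacb (chr5:114146535-114250761, plus strand), sits at the mitochondrial membrane, where malonyl-CoA restrains fatty acid uptake for oxidation. Acaca stood at 183, 149 and 164 FPKM in the glands and at 13.0, 16.4 and 13.5 FPKM in tumours 1 to 3. The groups lay far apart and the tumours were close to each other. Acaca fell 11.6-fold, from 166 ± 16.9 to 14.3 ± 1.84 FPKM (SD, n = 3 each), with a log2 fold change of -3.44 (SE 0.13, limma adjusted p = 1.25e-05). Acacb stood at 42.6, 33.0 and 35.7 FPKM in the glands and at 5.18, 7.41 and 3.18 FPKM in tumours 1 to 3. Its tumour values were again all lower, and tumour 3 was the lowest. Acacb fell 7.06-fold, from 37.1 ± 4.92 to 5.26 ± 2.12 FPKM (SD, n = 3 each), with a log2 fold change of -2.66 (SE 0.25, limma adjusted p = 3.24e-04).

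Within a library, the level of Acaca was 4.30, 4.52 and 4.60 times that of Acacb in the glands and 2.52, 2.22 and 4.24 times in the tumours. The ratio was lower in every tumour than in any gland, but tumour 3 came near the glands. The log2 ratio was taken from log2(value + 1), which gives a larger shift here than the FPKM ratios above. The difference in the log2 ratio of Acaca to Acacb was -0.79, with a 2-sided exact permutation p of 0.1. This is the smallest p that 3 against 3 samples allow, and it stayed at 0.1 after adjustment over the 3 pairs compared, so no pair could pass 0.05. The coding sequences of these paralogs were identical at 72.25% of 6911 aligned bases, with no shared run above 29 bases.

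Fasn (chr11:120805846-120824547, minus strand) encodes fatty acid synthase, the multi-domain enzyme that builds palmitate. Its level was 1076, 831 and 965 FPKM in the glands and 54.4, 86.2 and 105 FPKM in the tumours. Fasn ranked 56, 86 and 72 from the top of the gland libraries and 1566, 926 and 700 in the tumours, so it moved out of the most abundant transcripts. Tumour 3 had the most and tumour 1 the least of the tumours, and none came near the glands. Fasn fell 11.7-fold, from 957 ± 123 to 81.9 ± 25.6 FPKM (SD, n = 3 each), with a log2 fold change of -3.57 (SE 0.25, limma adjusted p = 9.45e-05).

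Elovl6 (chr3:129532355-129638495, plus strand) encodes the elongase that extends palmitate to stearate. Its level was 150.3, 141 and 144 FPKM in the glands and 11.1, 11.4 and 7.52 FPKM in the tumours. The glands were nearly equal, and tumour 3 was the lowest library. Elovl6 fell 14.5-fold, from 145 ± 4.66 to 9.98 ± 2.14 FPKM (SD, n = 3 each), with a log2 fold change of -3.75 (SE 0.16, limma adjusted p = 1.87e-05).

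The desaturases Scd1 and Scd2 moved in opposite directions. Scd1 (chr19:44394455-44407879, minus strand) and Scd2 (chr19:44293674-44306864, plus strand) lie near each other and encode enzymes that place a double bond in palmitate and stearate. Scd1 had 4428, 4298 and 4484 FPKM in the glands and 262, 268 and 165 FPKM in the tumours. It was the gene ranked 6, 5 and 5 in the gland libraries and 305, 256 and 381 in the tumours. Scd1 fell 19.0-fold, from 4403 ± 95.3 to 232 ± 57.9 FPKM (SD, n = 3 each), with a log2 fold change of -4.28 (SE 0.21, limma adjusted p = 2.94e-05). No other of the 10 genes fell by a larger factor.

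Scd2 had 78.7, 67.4 and 75.2 FPKM in the glands and 110.0, 132 and 132 FPKM in the tumours. Every tumour was above every gland. Scd2 rose 1.69-fold, from 73.8 ± 5.78 to 125 ± 12.7 FPKM (SD, n = 3 each), with a log2 fold change of 0.75 (SE 0.12, limma adjusted p = 0.00255). With glands 1 and 3 left out, which leaves 1 gland, the rise was 0.87 on the log2 scale and was no longer called (limma adjusted p = 0.0599).

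The level of Scd1 was 56.3, 63.8 and 59.6 times that of Scd2 in the glands and 2.38, 2.03 and 1.25 times in the tumours. In tumour 3 the desaturases were thus nearly level. The log2 ratio of Scd1 to Scd2, from log2(value + 1), differed by -5.02 (2-sided exact permutation p = 0.1, the smallest possible, and 0.1 after adjustment over 3 pairs). Scd1 alone supplied 63.2%, 66.9% and 65.0% of the summed FPKM of the 10 genes in the glands, and 36.4%, 32.1% and 20.5% in the tumours.

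**Figure D2:**
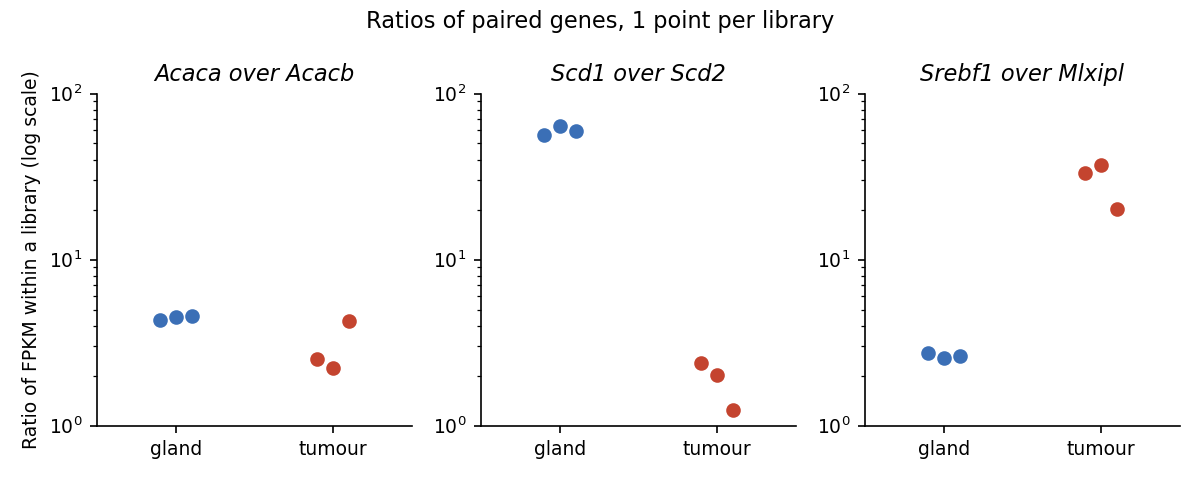
Ratio of FPKM within each library for Acaca over Acacb, Scd1 over Scd2 and Srebf1 over Mlxipl, on a log axis, with glands and tumours as separate points. Scd1 over Scd2 drops from 56.3 to 63.8 in the glands to between 1.25 and 2.38 in the tumours, and Srebf1 over Mlxipl goes the other way.

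The Scd paralogs are alike in sequence, which bears on how reads are shared between them. The coding sequences of Scd1 and Scd2 were identical at 90.36% of 1068 aligned bases, with a longest shared run of 147 bases. Scd1 and Scd3 were identical at 91.48% of 1068 aligned bases, with a longest shared run of 185 bases. How the authors' counting divided reads within such runs is not stated, so the exact levels of the Scd genes are uncertain. A stretch of 120 aligned coding bases of Scd1 and Scd2 is shown to make the comparison visible, with the 31 differing bases in capitals. In this stretch the pair is less alike than over the coding sequences as a whole. It is printed 5′ to 3′ from the GENCODE M21 transcripts, coding positions 76 to 195 of Scd1 and 85 to 204 of Scd2.
Scd1: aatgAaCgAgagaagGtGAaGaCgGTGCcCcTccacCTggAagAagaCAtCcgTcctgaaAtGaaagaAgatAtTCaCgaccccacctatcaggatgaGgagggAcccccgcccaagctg
Scd2: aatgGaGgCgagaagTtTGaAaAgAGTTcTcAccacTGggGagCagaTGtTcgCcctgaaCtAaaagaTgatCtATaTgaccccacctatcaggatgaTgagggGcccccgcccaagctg

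Me1 (chr9:86581371-86695953, minus strand) encodes cytosolic malic enzyme, which makes NADPH as it turns malate into pyruvate. Its level was 391, 344 and 390.4 FPKM in the glands and 61.1, 67.2 and 106 FPKM in the tumours. Tumour 3 was the highest tumour and still far under the glands. Me1 fell 4.81-fold, from 375 ± 27.0 to 78.0 ± 24.2 FPKM (SD, n = 3 each), with a log2 fold change of -2.29 (SE 0.21, limma adjusted p = 2.68e-04).

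The transcription factor genes parted. Srebf1 (chr11:60199089-60222581, minus strand) encodes SREBP-1, a membrane-bound factor that is cut and sent to the nucleus to act. Srebf1 had 96.7, 83.4 and 92.8 FPKM in the glands and 67.9, 89.2 and 102 FPKM in the tumours. The groups overlapped, and tumour 1 was the lowest library and tumour 3 the highest. The means were 91.0 ± 6.85 and 86.3 ± 17.1 FPKM (SD, n = 3 each). The log2 fold change was -0.09 (SE 0.16, limma adjusted p = 0.668), with a 95% confidence interval of -0.48 to 0.29. Without tumour 1 the log2 fold change turned to 0.07 (limma adjusted p = 0.653), and with glands 1 and 3 left out to 0.03 (limma adjusted p = 0.952). The gene body overlaps the end of Rai1 on the opposite strand, and antisense genes are annotated across Elovl6, Me1 and Mlxipl. No source used here says whether counting used strand, so reads of such partners cannot be told apart. Acaca (with Gm11437 and Gm37391), Elovl6 and Me1 each also have 1 partner on their own strand, where strand would not separate reads. Acly, Scd2 and Srebf1 overlap microRNA genes on their own strand, and Acacb overlaps the pseudogene Gm13784.

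Mlxipl (chr5:135089890-135138382, plus strand) encodes ChREBP, the factor that responds to glucose metabolites. Mlxipl had 35.5, 32.8 and 35.5 FPKM in the glands and 2.05, 2.39 and 5.02 FPKM in the tumours. Tumour 3 had more than the other tumours and far less than any gland. Mlxipl fell 11.0-fold, from 34.6 ± 1.57 to 3.15 ± 1.62 FPKM (SD, n = 3 each), with a log2 fold change of -3.17 (SE 0.25, limma adjusted p = 1.55e-04). The level of Srebf1 was 2.73, 2.54 and 2.61 times that of Mlxipl in the glands and 33.1, 37.3 and 20.3 times in the tumours. The log2 ratio of Srebf1 to Mlxipl was higher in every tumour than in any gland, with a difference of 3.07 (2-sided exact permutation p = 0.1, the smallest possible, and 0.1 after adjustment over 3 pairs).

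The start regions of these genes were searched for letters that the pathway's factors are known to bind. Windows from 250 bases before to 50 bases after a start came from RefSeq (GRCm38.p6), and 8 of the 10 genes matched, with 12 windows. Scd1 and Scd2 are not among the 8. The only windows of Acaca (chr11:84195188-84195487) and Acacb (chr5:114165268-114165567) lie inside the gene bodies given above. The outermost starts of Acaca and Acacb were thus not searched. A window of Me1 (chr9:86687228-86687527) is also internal, as are some windows of Srebf1 and Mlxipl. Both strands were searched. The sterol regulatory element TCACNCCAC was in 1 member window, of Mlxipl, and in 1.24% of all 32851 windows. The E-box CACGTG, the core of the site for ChREBP with its partner Mlx, was in 1 member window, also of Mlxipl, and in 7.15% of all windows. The NF-Y box CCAAT was in 7 windows of 6 members and in 37.4% of all. The GC box GGGCGG was in 5 windows of 4 members and in 35.7% of all. Neighbouring matches can share letters, as 2 NF-Y boxes of Fasn do, and a match is a description of the sequence only.

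The 250 bases before the start are printed for Fasn and Acly, which fell, for 1 start of Srebf1, which was not called, and for both Mlxipl starts, which hold the only E-box and the only sterol regulatory element. All are 5′ to 3′ on the strand of the gene, with motif matches in capitals. The Fasn window (chr11:120824548-120824797, minus strand) has 3 NF-Y boxes. The Acly window (chr11:100528001-100528250, minus strand) has 4 GC boxes. The Srebf1 window (chr11:60210472-60210721, minus strand) has an NF-Y box and GC boxes. The upstream Mlxipl window (chr5:135089640-135089889, plus strand) has the E-box, an NF-Y box and GC boxes, and the downstream Mlxipl window (chr5:135106641-135106890, plus strand) has the sterol regulatory element. The table gives 1 value per symbol, so the starts of Srebf1 or Mlxipl cannot be told apart in these data.
Fasn: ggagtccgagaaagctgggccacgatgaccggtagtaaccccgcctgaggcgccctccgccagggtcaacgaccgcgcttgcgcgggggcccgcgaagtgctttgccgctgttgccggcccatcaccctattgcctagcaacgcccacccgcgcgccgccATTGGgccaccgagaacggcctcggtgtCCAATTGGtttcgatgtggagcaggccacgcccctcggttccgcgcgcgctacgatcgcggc
Acly: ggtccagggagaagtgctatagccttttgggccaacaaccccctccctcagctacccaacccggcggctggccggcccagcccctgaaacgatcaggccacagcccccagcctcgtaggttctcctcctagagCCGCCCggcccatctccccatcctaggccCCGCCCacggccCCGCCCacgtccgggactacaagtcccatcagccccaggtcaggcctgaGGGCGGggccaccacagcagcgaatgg
Srebf1: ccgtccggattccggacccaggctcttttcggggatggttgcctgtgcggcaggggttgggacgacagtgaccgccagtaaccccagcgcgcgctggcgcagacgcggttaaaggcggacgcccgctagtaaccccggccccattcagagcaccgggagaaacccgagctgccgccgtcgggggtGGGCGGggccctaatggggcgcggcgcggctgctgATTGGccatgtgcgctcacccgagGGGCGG
Mlxipl upstream: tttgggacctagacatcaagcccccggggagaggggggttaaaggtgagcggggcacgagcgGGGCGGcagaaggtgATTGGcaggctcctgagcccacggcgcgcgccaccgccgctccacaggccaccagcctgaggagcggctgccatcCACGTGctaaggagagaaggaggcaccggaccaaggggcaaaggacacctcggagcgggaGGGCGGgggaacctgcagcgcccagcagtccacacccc
Mlxipl downstream: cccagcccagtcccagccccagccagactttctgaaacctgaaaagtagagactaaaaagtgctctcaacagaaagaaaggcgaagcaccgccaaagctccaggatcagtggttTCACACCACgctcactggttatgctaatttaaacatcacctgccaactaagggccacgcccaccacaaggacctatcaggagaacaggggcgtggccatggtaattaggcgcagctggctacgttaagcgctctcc

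The synthesis genes varied among libraries of one group as follows, with the values of other cell types' markers beside them. In the glands, all 10 genes had their lowest value in gland 2. That library had a summed skeletal muscle marker level of 13935 FPKM, against 16.1 FPKM in gland 1 and 1231 FPKM in gland 3, and 7.51 to 31.7 FPKM in the tumours. All 8 lower calls and the higher call of Scd2 held without gland 2. Among the tumours, tumour 3 had the highest value for 6 genes (Fasn, Acly, Scd2, Me1, Srebf1 and Mlxipl) and the lowest for 3 (Acacb, Elovl6 and Scd1). Tumour 3 had the lowest value for 11 of 12 white adipocyte markers. Adipoq, the adipocyte hormone adiponectin, had 661, 674 and 671 FPKM in the glands and 15.5, 12.6 and 1.72 FPKM in the tumours. Retn, the hormone resistin, and Pparg, the master regulator of adipocytes, were listed at 0 in tumour 3.

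As a percentage of the gland mean, the median of the 10 synthesis genes was 10.9%, 13.9% and 12.7% in tumours 1, 2 and 3. The median of the 12 white adipocyte markers was 2.94%, 3.51% and 0.312%. The median of the synthesis genes includes Scd2 and Srebf1, which did not fall. Scd1, Elovl6 and Acacb were lowest in tumour 3, at 3.74%, 5.18% and 8.57%. Each of the 8 genes that fell kept at least 3.74% of its gland mean in every tumour. The median of the 12 luminal epithelium markers was 238%, 229.9% and 302%. The percentages are descriptions of 3 libraries and carry no test.

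**Figure D3:**
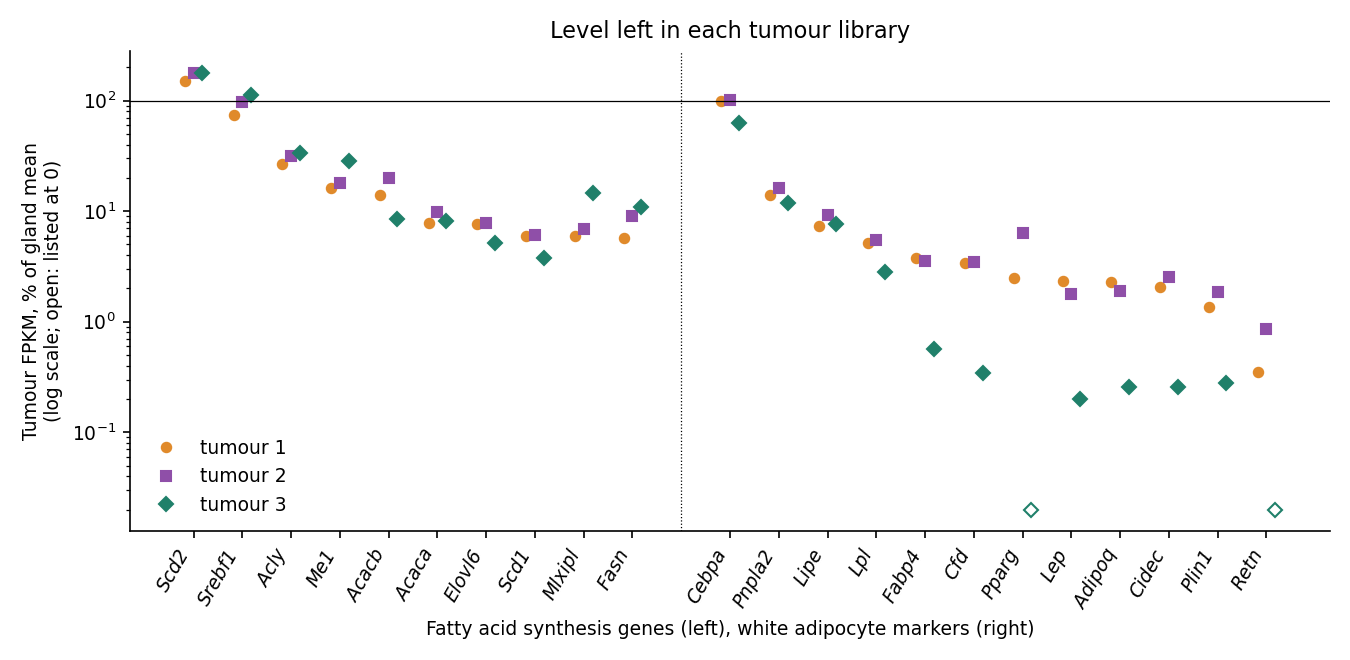
Level in each tumour as a percentage of the gland mean, on a log axis, for each fatty acid synthesis gene (left) and white adipocyte marker (right), with a symbol per tumour, a line at the gland mean and open symbols for values listed at 0. In tumour 3, Scd1, Elovl6 and Acacb are at their lowest, and so are 11 of the 12 adipocyte markers, all but Lipe (7.31%, 9.17% and 7.71% in tumours 1 to 3).

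Genes that supply carbon and NADPH to the pathway went mostly the same way. Of 16 tested, 11 were called lower, 1 higher and 4 were not called, with a median log2 fold change of -0.86. The shares over all tested genes were 23.1% lower and 21.9% higher. Slc25a1, which exports citrate from mitochondria, had 485 ± 35.0 FPKM in the glands and 45.0 ± 3.25 FPKM in the tumours (SD, n = 3 each), or a log2 difference of -3.40 (SE 0.11, limma adjusted p = 1.03e-05). Pcx, pyruvate carboxylase, had a log2 fold change of -3.73, Acss2, which makes acetyl-CoA from acetate, of -2.64, and Pdha1, a pyruvate dehydrogenase subunit, of -1.18. These enzymes were called lower together with Acly. G6pdx and Pgd are the NADPH-making enzymes of the pentose phosphate pathway. G6pdx, chosen after its values were seen, had a log2 fold change of -0.87 (limma adjusted p = 0.00113), a call lost with glands 1 and 3 left out (limma adjusted p = 0.0674). Pgd had 213 FPKM in the glands and 182 FPKM in the tumours and was not called (limma adjusted p = 0.111), but it was called lower with quantile normalization, a common sum or array weights (limma adjusted p of 0.0482, 0.0423 and 0.037). The 1 higher gene was the mitochondrial malic enzyme Me2, named after its value was seen, at a log2 fold change of 0.55 (limma adjusted p = 0.043). The call of Me2 was lost when any 1 of the 6 libraries was left out, with limma adjusted p of 0.0609 to 0.0936. With all 6 libraries kept, it was also lost with no filter, a common sum, array weights or no variance trend.

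Of 22 regulators of the pathway, 8 were called lower, 3 higher and 11 were not called, with a median log2 fold change of -0.08. Among all tested genes, 45.1% were called, 23.1% lower and 21.9% higher, so calls were about as frequent here. Nr1h3, the oxysterol receptor LXR-alpha that activates Srebf1, had 27.7 FPKM in the glands and 3.85 FPKM in the tumours, or a log2 difference of -2.58 (limma adjusted p = 9.26e-05). Its relative Nr1h2 had 50.8 and 46.9 FPKM and was not called (limma adjusted p = 0.503). Insig1, which holds SREBP precursors in the endoplasmic reticulum and is itself a target of SREBP, had a log2 fold change of -2.91 (limma adjusted p = 1.2e-04). Srebf2, the factor for cholesterol genes, chosen after its values were seen, had 22.2 ± 2.77 and 26.5 ± 5.86 FPKM (SD, n = 3 each) and was not called (limma adjusted p = 0.327). Mlycd, which breaks down malonyl-CoA, fell by 1.09 on the log2 scale. Mid1ip1, an activator of acetyl-CoA carboxylase, fell by 0.74, and its relative Thrsp, chosen after its values were seen, fell by 1.53 on the log2 scale. The calls of Mid1ip1 and Thrsp were lost with glands 1 and 3 left out (limma adjusted p = 0.097 and 0.122).

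The 3 regulators called higher, named after their values were seen, were Mlx, the binding partner of ChREBP, Insig2, a relative of Insig1, and Prkag1, a subunit of AMP-activated kinase. Their log2 fold changes were 0.50 (Mlx), 0.38 (Insig2) and 0.27 (Prkag1), with limma adjusted p of 0.0227, 0.0241 and 0.0443. Each call was lost when any 1 of several libraries was left out, which also leaves fewer samples to test. That of Mlx was lost without gland 1, gland 2, tumour 1 or tumour 2 (limma adjusted p of 0.0568 to 0.0779). That of Insig2 was lost without gland 1, gland 3 or tumour 2 (0.0697 to 0.0959). That of Prkag1 was lost without any 1 gland, tumour 1 or tumour 2 (0.0699 to 0.12). With the replicate number as a block, none of these 3 was called (limma adjusted p of 0.0675, 0.0875 and 0.144).

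Of the 18 other elongases, desaturases and chain-end enzymes, 17 were tested, with a median log2 fold change of -0.43. Of the 17, 9 were called lower, 1 higher and 7 not, against 23.1% lower and 21.9% higher over all tested genes. The lower count was 6 without gland 1 or gland 3, the higher count was 2 without gland 1 or tumour 3, and with glands 1 and 3 left out 2 were lower and 0 higher. Elovl3, an elongase of brown fat and skin, had 9.22, 8.99 and 5.76 FPKM in the glands and was listed at 0 in every tumour. Scd3 had 17.0 FPKM in the glands and 5.00 FPKM in the tumours, or a log2 difference of -1.62, like that of Fads3, also -1.62. Hacd2, a dehydratase of the elongation cycle, had a log2 fold change of -1.21. Elovl7, named after its value was seen, was the 1 higher gene, at 0.81. The calls of Scd3, Hacd2 and Elovl7 were lost with glands 1 and 3 left out (limma adjusted p of 0.0707, 0.0641 and 0.0585).

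Genes downstream of synthesis, for activation of fatty acids and their assembly into triglyceride, were mostly called lower. Of 21, 20 were tested, and 12 were called lower, 1 higher and 7 not, with a median log2 fold change of -1.22. The shares over all tested genes were 23.1% lower and 21.9% higher. Dgat2, which adds the last acyl chain of triglyceride, had 432 FPKM in the glands and 4.87 FPKM in the tumours, or a log2 difference of -6.21 (SE 0.10, limma adjusted p = 5.72e-07). Agpat2 fell by 3.85, Acss3 by 3.83 and Acsl1, an acyl-CoA synthetase of adipocytes, by 3.64 on the log2 scale. Acsl4, a synthetase that prefers arachidonate, was the 1 higher gene and was named after its value was seen. It had 17.0 ± 1.63 FPKM in the glands and 99.6 ± 20.2 FPKM in the tumours (SD, n = 3 each), or a log2 difference of 2.47 (limma adjusted p = 7.82e-05). Acsl5 was not called, at -0.21 (limma adjusted p = 0.159), but it was called lower with quantile normalization or array weights (limma adjusted p of 0.0457 and 0.0381).

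Cholesterol synthesis, the neighbouring lipid pathway under SREBP control, had calls in both directions. Of 23 genes for synthesis and uptake of cholesterol, 22 were tested, and 8 were called higher, 5 lower and 9 not, with a median log2 fold change of 0.20 against -2.91 for the 10 fatty acid genes. The share called lower was near the 23.1% of all tested genes. The lower count was 3 without gland 1, without gland 3, with the replicate block and with no filter, and with glands 1 and 3 left out 3 were higher and 1 lower. Idi1 rose by 1.06 and Fdps by 0.81 on the log2 scale, and both make isoprenoid precursors. Sc5d, a sterol desaturase, fell by 1.26 on the log2 scale. Calls for the breakdown of fatty acids went 1 way. Of 16 mitochondrial oxidation genes, 14 were called lower by limma, 0 higher (also 0 at an unadjusted p under 0.05) and 2 not, with a median log2 fold change of -1.02. With glands 1 and 3 left out, 8 were called lower. Cpt2, which returns acyl groups to CoA inside mitochondria, fell by 1.55, and the dehydrogenases Acadm and Acadvl by 1.64 and 1.17 on the log2 scale. The 2 oxidation genes not called were Cpt1a, at -0.44, and Acadl, at 0.05 (limma adjusted p = 0.156 and 0.792).

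**Figure D4:**
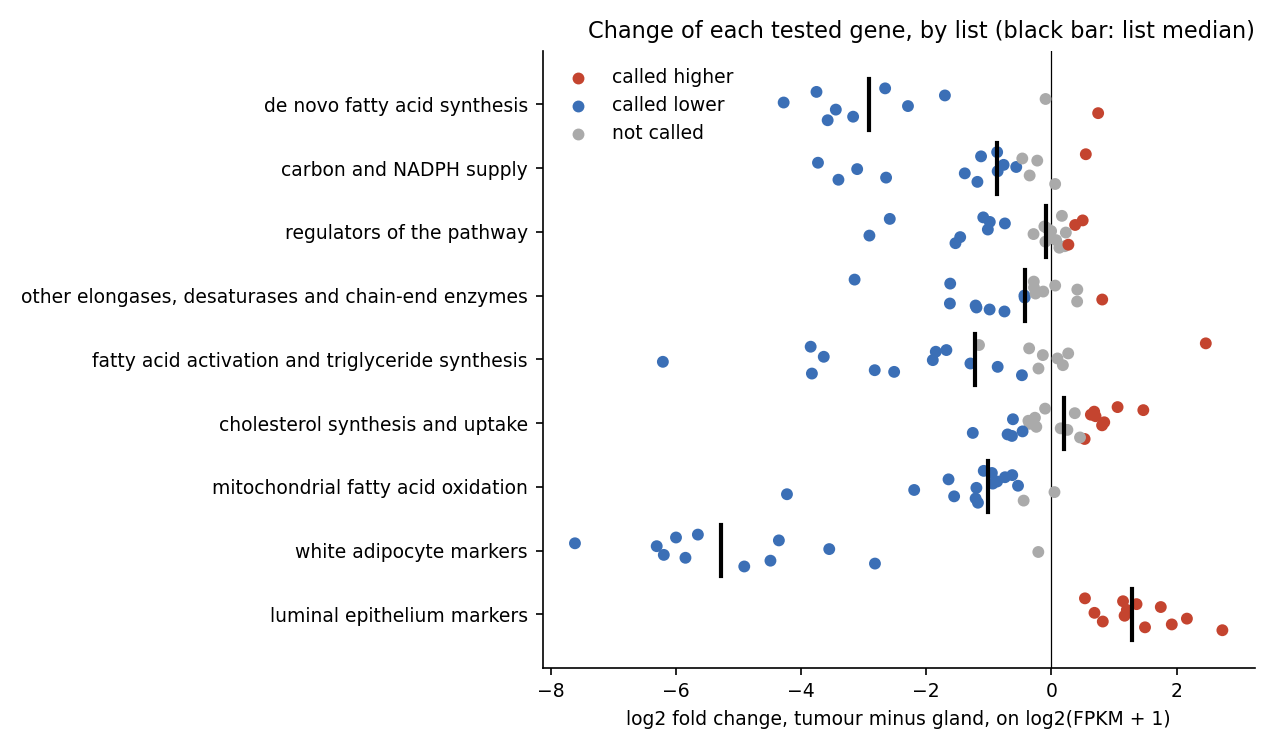
Log2 fold change (tumour minus gland, on log2(FPKM + 1)) of each tested gene by list, 1 point per gene, with bars for list medians. The 10 synthesis genes have a median of -2.91, between the white adipocyte markers at -5.28 and the cholesterol genes at 0.20, and the luminal markers lie above 0.

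The white adipocyte markers, with a median log2 fold change of -5.28, had 11 lower calls. Lep, the hormone leptin, had 47.8 FPKM in the glands and 0.688 FPKM in the tumours, or a log2 difference of -4.91. Lipe, hormone-sensitive lipase, had 183 and 14.7 FPKM, a log2 fold change of -3.55, near that of Fasn. The 1 marker not called was Cebpa, a factor also found outside fat, at -0.21 (limma adjusted p = 0.408), which came to 0.0033 without tumour 3 (limma adjusted p = 0.981). Of the luminal markers, Krt8, a keratin of simple epithelia, had 228 and 869 FPKM, and Epcam, an epithelial adhesion protein, 163 and 421 FPKM. Their log2 fold changes were 1.92 and 1.36, in the direction of Scd2 alone among the synthesis genes.

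The genes with the most similar pattern to 4 of the members were found by the Euclidean distance between centred log2(value + 1) values over the 6 libraries. Among the nearest to Fasn were Pcx and Adhfe1, at distances of 0.41 and 0.55. Nearest to Scd1 were Abcd2, Gnai1 and Lpl, at 0.26, 0.29 and 0.32. Nearest to Scd2 were Erf, Gsr and Dpp3, at 0.055, 0.078 and 0.078. All 3 were called higher, by 0.72, 0.76 and 0.72 on the log2 scale, and lost their calls as Scd2 did with glands 1 and 3 left out (limma adjusted p of 0.0584, 0.0513 and 0.0786). Nearest to Srebf1 were Fam21, Crtc3 and Ulk1, at 0.078, 0.079 and 0.086, none of them called (limma adjusted p of 0.774, 0.663 and 0.906). Genes chosen by this distance have fold changes and calls like those of the member because of how they were chosen. Likeness over 6 libraries in 2 groups mostly records the shared difference between the groups and the shared libraries.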

How the data were processed

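RNA was measured by sequencing in 3 mammary glands and 3 mammary tumours. The authors deposited 1 table of FPKM for 24421 symbols, and 6247 of these are listed at 0 throughout. The header gives sample names and no unit. FPKM was inferred from the library sums and from the submitters' processing notes, which name HISAT2, StringTie and the mm10 build without versions or settings. Each column was matched to its sample by the label description.

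Values were transformed to log2(value + 1). The 13364 genes averaging 1 FPKM or more over the libraries were fitted in limma 3.58.1 (R 4.3.3) with a variance trend over all 6 libraries, 2-sided, with Benjamini-Hochberg adjustment over all of them and a threshold of 0.05. The fit was run on simulated data with independent noise for each gene. Such data lack shifts that many genes share within a library, so the run does not bear on them. Pairs of members were compared by exact permutation over samples, on log2(value + 1) of the first minus that of the second. A fold is the ratio of mean FPKM. Gene lists cover carbon and NADPH supply, regulators, other elongases and desaturases, triglyceride synthesis, cholesterol, oxidation, and markers of white and brown adipocytes, luminal and alveolar epithelium, lymph node, macrophages and muscle. The lists matched by symbol except 2 genes matched by synonym. In each list up to 4 called genes with the smallest p and up to 2 uncalled genes with the highest mean could be named, and for 4 members the 3 nearest genes, leaving out 635 predicted or numbered names. Genes outside that rule are marked in the text, and some genes that the rule names are not reported here. The members, lists and rules were chosen with earlier results of these data known. Positions are from GENCODE M21 (GRCm38, the assembly of mm10). Alternatives were other scalings, filters and pseudocounts, array weights, no variance trend, a replicate block, leaving out each library, and leaving out glands 1 and 3. No library was dropped or imputed.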

Additional observations from a re-analysis of the deposited data

How the results depend on the processing

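The 8 lower calls of members held in all 16 alternatives, and the higher call of Scd2 in 15. With glands 1 and 3 left out, which leaves gland 2 and assumes it varies like the tumours, 1858 genes were called, 0 members were higher and 8 were lower. Over the 6 fits that leave out 1 library, 4217 to 6402 genes were called, with 8 members lower and 1 higher in each. The gland and tumour replicate numbers share only a number: deviations of same-numbered libraries correlated at -0.05, -0.12 and -0.12 over 13364 genes. With the replicate block, 4728 genes were called, and the members' counts were 8 lower and 1 higher. Quantile normalization moved the median log2 fold change of all genes to 0.12 and the calls to 3664 higher and 2622 lower (58.3% higher, against 48.7%), and a common sum gave 2276 higher and 3193 lower (41.6% higher). At a mean of at least 5 FPKM, 1864 genes were called lower and 2464 higher. Directions turned only for uncalled genes. With glands 1 and 3 left out, the log2 fold change was 0.029 for Srebf1, 0.071 for Nr1h2, 0.088 for Fam21, 0.022 for Crtc3 and 0.073 for Ulk1. With quantile normalization it was 0.11 for Crtc3. Over the fits that leave out 1 library it ranged from -0.22 to 0.068 for Srebf1, from -0.32 to 0.0033 for Cebpa, from -0.19 to 0.082 for Fam21, from -0.20 to 0.059 for Crtc3 and from -0.16 to 0.13 for Ulk1. With glands 1 and 3 left out, 7 carbon and NADPH supply genes, 4 regulators and 1 macrophage marker were called lower. The causes were not tested. The log2 ratio of Srebf1 to Mlxipl differed by 3.43 with a pseudocount of 0.1. With 3 libraries a group and unknown depth, small differences such as that of Srebf1 are limited by its interval.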

Other observations

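Genes of milk fat secretion and alveolar cells, which make fat for export, had calls in both directions. Of 12 tested, 6 were called higher, 2 lower and 4 not, with a median log2 fold change of 0.41. Over all tested genes, 21.9% were called higher and 23.1% lower. Lalba, a milk protein and cofactor of lactose synthase, had a log2 fold change of 4.85, and Csn3, kappa-casein, of 2.64. The 2 lower genes were Muc15, a milk fat globule mucin, at -1.58, and Cidea, a lipid droplet protein of milk fat and brown fat, at -3.83. Of 7 brown adipocyte markers, 6 were tested, and 5 were called lower and 1 not, with sums of 407 to 673 FPKM in the glands and 7.94 to 27.7 FPKM in the tumours. Ucp1, the uncoupling protein of brown fat, had a log2 fold change of -5.95.

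Of 10 macrophage markers, 5 were called lower, 1 higher and 4 not, with sums of 1599.5 to 1788 FPKM in the glands and 716 to 1457 FPKM in the tumours. The higher gene was Cd14, an endotoxin co-receptor, at 1.85. Of the 5 lower genes, Mrc1 was at -2.02, Cd163 at -1.56 and Csf1r at -1.14. Over all tested genes, 23.1% were called lower and 21.9% higher. Of 12 lymph node markers, 3 were called lower and 9 not, with sums of 250.6, 50.3 and 263 FPKM in the 3 glands and 63.4, 52.7 and 2.55 FPKM in the 3 tumours. The lymph node count was 0 without gland 1 or gland 3, 10 without gland 2 and 5 without tumour 1. None of the 8 skeletal muscle markers was called by limma, with a median log2 fold change of -4.95. Their sums were 16.1, 13935 and 1231 FPKM in glands 1 to 3 and 7.51 to 31.7 FPKM in the tumours. Gland 1 thus lay within the range of the tumours. At an unadjusted p under 0.05, 6 of them were lower, and all 8 were called lower without gland 1.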
